A study of Ovis aries with 115 samples.

Results

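IGF2 (ENSOARG00000003586), the gene of insulin-like growth factor 2, was followed as read counts in the cervix of every ewe of a study of 4 sheep breeds. It is 1 gene of the 27054 in the deposited count tables, taken by its identifier. It was singled out with its values in these ewes already known, so its levels and the differences between its groups are given as descriptions with their errors and without a test. The tissue was taken post mortem from the cervix of multiparous ewes of the Suffolk and Belclare breeds, kept in Ireland, and of the Fur and Norwegian White Sheep (NWS) breeds, kept in Norway. The study describes Suffolk as low, Belclare as medium and both Norwegian breeds as high in fertility after cervical insemination with frozen-thawed semen, and it used Suffolk as the reference. Each breed was sampled in 3 states: the follicular phase of a cycle synchronised with an intravaginal progestagen sponge followed by equine chorionic gonadotropin (11 Suffolk, 10 Belclare, 8 Fur and 10 NWS ewes), the follicular phase of a natural cycle (8 Suffolk and 10 ewes of each other breed), and the luteal phase, again after synchronisation (10 Suffolk, 10 Belclare, 9 Fur and 8 NWS ewes). The hormone treatment of the luteal ewes is not described in the sources used here, and the breeds of each country were sampled in that country, so the effect of a breed and that of its country cannot be told apart. These 114 ewes entered the comparisons, and 1 further Suffolk sample with contradictory labels did not.

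IGF2 is a secreted growth factor of the insulin family. It acts through the type 1 IGF receptor and the insulin receptor, while the IGF2 receptor (IGF2R) takes it up for breakdown in the lysosome, and binding proteins (IGFBPs) hold it outside the cell until proteases release it. In most mammals the gene is imprinted and expressed from the paternal allele, is very active in fetal tissue and placenta, and in the sheep uterus is expressed chiefly by stromal cells. In the RefSeq gene order of the sheep assembly ARS-UI_Ramb_v3.0, used here for names alone because the counts were made on another assembly, the gene stands between INS and the uncharacterised LOC105604151. Whether counting used the strand is not given in the sources used here, so reads of overlapping or antisense transcripts cannot be told apart from those of IGF2.

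The libraries held between 12238996 and 31261671 assigned reads, with a median of 17835128. IGF2 was counted with 193 to 12895 reads in an ewe, so its counting error was small beside the spread between ewes. No member of the stromal, epithelial, endothelial or leukocyte marker lists was at 0 in any ewe, and 3 of 6 smooth muscle markers were at 0 in some ewes. The summed level of those 6 smooth muscle genes had group medians of 204.3 to 576.1 counts scaled to a common library size (CPM) in the Irish breeds and of 2417 to 6189 CPM in the Norwegian breeds. The other lists with separate ranges of group medians were lower in the Norwegian breeds: epithelium (13 genes, 1997 to 2887 against 2946 to 5871 CPM), endothelium and pericytes (7 genes, 617 to 842.9 against 876.7 to 1157 CPM) and leukocytes (11 genes, 72.26 to 90.97 against 111.5 to 151.3 CPM). These directions were favoured by how the genes were named. The 6 smooth muscle genes are among those the study lists as lowest in Suffolk against Fur or NWS at the synchronised follicular phase. The other lists were named chiefly from genes higher in Suffolk than in Fur in that state. The contrasts between countries are therefore a description. In bulk tissue of this kind fewer cells of a type and less RNA per cell cannot be told apart. NWS replicates 4 and 10 of the natural follicular phase carried 38.82 and 33.0 CPM of COX-1, here a gene of the mitochondrial genome, whereas the other 8 ewes of their group carried 828.3 to 2594 CPM and the Fur ewes of the same state 27.55 to 42.14 CPM. The NWS values of IGF2 and the calls that rest on these libraries are therefore also given without them.

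The highest IGF2 levels of the series were all found in Suffolk ewes, in 1 ewe at the synchronised follicular, 3 at the natural follicular and 1 at the luteal phase. At the synchronised follicular phase Suffolk ewes ranged from 72.1 to 509.4 CPM around a median of 140.5 (mean 162.7 ± 120.6 SD, n = 11). At the natural follicular phase they ranged from 58.6 to 603.3 CPM around a median of 85.7 (221.5 ± 217.2, n = 8), and at the luteal phase from 81.74 to 749.4 CPM around a median of 111.3 (170.6 ± 203.9, n = 10). In all 3 states the mean stood above the median because single ewes lay far above the rest.

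These ewes can be named one by one. Replicate 3 of the synchronised follicular ewes had 509.4 CPM, and the next ewe of that group had 193.3 CPM. Replicates 9, 2 and 3 of the natural follicular ewes had 603.3, 450.1 and 360.0 CPM, while the other 5 ewes of that group lay between 58.6 and 98.78 CPM with none in between. Replicate 7 of the luteal ewes had 749.4 CPM, the highest value of all, against 134.5 CPM in the next ewe. These 5 of 29 Suffolk ewes exceeded each of the 85 ewes of the other breeds, whose highest value was 255.0 CPM in a Belclare ewe. The remaining 24 Suffolk ewes ranged from 58.6 to 193.3 CPM, inside the range of the other breeds.

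Belclare, the other Irish breed, came next by mean level. Its ewes ranged from 50.41 to 172.2 CPM with a median of 117.3 at the synchronised follicular phase (111.0 ± 45.57, n = 10) and from 36.72 to 255.0 CPM with a median of 99.13 at the natural one (121.1 ± 65.97, n = 10). At the luteal phase they ranged from 47.19 to 205.5 CPM with a median of 87.44 (99.19 ± 46.67, n = 10). In the natural cycle 5 Belclare ewes lay between 36.72 and 78.52 CPM and 5 between 119.7 and 255.0 CPM, and the highest ewe stood apart from the next at 171.6 CPM.

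In CPM the Norwegian breeds held IGF2 within narrower limits, with group SDs of 17.36 to 38.55 CPM against 45.57 to 217.2 CPM in the Irish breeds. On the log2 scale this did not hold for the NWS natural follicular ewes. Their SD was 0.847, against 0.619 to 0.826 in the Belclare groups. Fur ewes ranged from 45.95 to 135.1 CPM at the synchronised follicular phase (median 85.7, 92.32 ± 27.48, n = 8) and from 47.5 to 102.1 CPM at the luteal phase (median 79.73, 81.17 ± 17.36, n = 9). At the natural follicular phase 9 of the 10 Fur ewes lay between 43.48 and 78.26 CPM and replicate 3 at 175.8 CPM (median 63.44, 72.09 ± 38.07). All of these values lay below the 5 high Suffolk ewes.

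NWS ewes ranged from 71.75 to 192.6 CPM at the synchronised follicular phase (median 93.95, 106.2 ± 38.55, n = 10) and from 49.3 to 115.1 CPM at the luteal phase (median 87.83, 81.88 ± 21.9, n = 8). At the natural follicular phase they ranged from 15.6 to 123.7 CPM (median 76.36, 79.53 ± 31.44, n = 10), or with a median of 75.18 without replicates 4 and 10 (76.48 ± 33.32, n = 8). The value of 15.6 CPM, the lowest of the series, belonged to replicate 5, and the next ewe of that group had 56.45 CPM. That library also had the lowest TMM factor of all (0.6896) and 22920 CPM of the smooth muscle genes, the highest of its group, whose median was 5767 CPM. The part of its composition in the low IGF2 value was not tested.

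**Figure D1:**
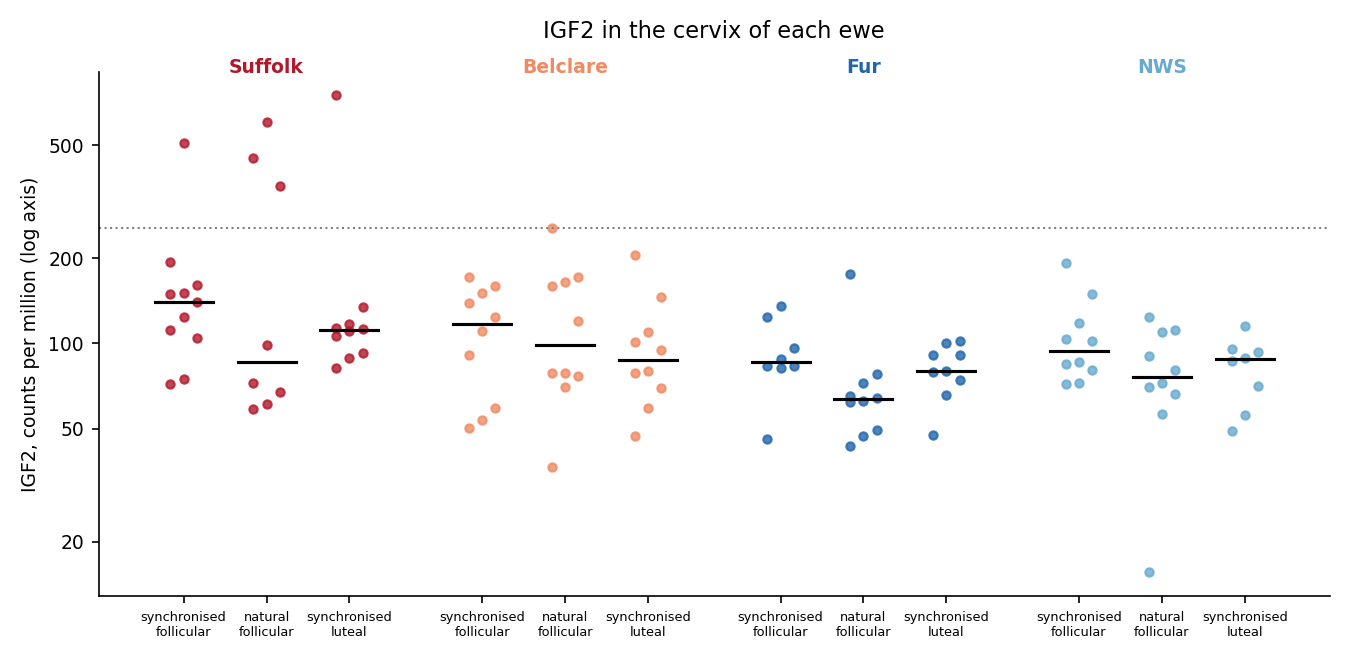
IGF2 in CPM (log axis) in each of the 114 ewes, 1 point per ewe, grouped by breed and state, with a black bar at each group's median. The dotted line marks 255.0 CPM, the highest ewe outside the Suffolk breed; 5 Suffolk ewes lie above it, and the lowest point is NWS natural follicular replicate 5 at 15.6 CPM.

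Ordered by their mean on the log2 CPM scale, the 3 Suffolk groups came first (natural follicular, synchronised follicular, luteal). They were followed by Belclare natural follicular, Belclare synchronised follicular, NWS synchronised follicular, Belclare luteal, Fur synchronised follicular, Fur luteal, NWS luteal, NWS natural follicular and Fur natural follicular. No neighbours in this order differed beyond their spread: the 11 steps measured 0.003 to 0.282 on the log2 scale, against within-group SDs of 0.344 to 1.433. The first and the last group differed by 1.10, which is more than the SD of 0.563 of the Fur natural follicular ewes but less than the SD of 1.433 of the Suffolk natural follicular ewes.

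Most of the variation in IGF2 lay between ewes of the same group. Its pooled within-group SD was 0.744 on the log2 CPM scale, against a median of 0.384 over the 15649 genes tested, and 95.66% of the 3549 genes of like level varied less. Breed and state together accounted for 19.86% of its variance, compared with a median of 34.78% over all genes. The within-group SD was 1.034 in Suffolk, 0.713 in Belclare, 0.62 in NWS (0.63 without replicates 4 and 10) and 0.472 in Fur. Genes in general did not follow that order, with medians of 0.388, 0.359, 0.418 and 0.317 in the same breeds.

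The comparison with Suffolk asks which genes differ in the cervix of breeds with better fertility. IGF2 was lower in the mean of each other breed in each of the 3 states, and the ranges of the groups overlapped in every case. The epithelial, endothelial and leukocyte lists were also lower in Fur and NWS than in the Irish breeds, a direction that the naming of their genes favours. Their part in the IGF2 difference was not tested. At the synchronised follicular phase the difference on the log2 CPM scale was -0.66 (SE 0.283) for Fur, -0.47 (SE 0.272) for NWS and -0.46 (SE 0.314) for Belclare. Only replicate 1 of the 8 Fur ewes lay below the lowest Suffolk ewe, and 6 of 11 Suffolk ewes lay above the highest Fur ewe. Without Suffolk replicate 3 these differences were -0.47, -0.28 and -0.27.

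At the natural follicular phase the difference was -1.10 (SE 0.537) for Fur, -1.005 (SE 0.573) for NWS and -0.44 (SE 0.570) for Belclare. The Fur difference was the only one of the 9 to exceed the pooled SD of its groups (1.037), and Suffolk had on this scale 2.15 times the Fur level. These values turned on the 3 high Suffolk ewes: without them the Fur difference was -0.09, the NWS difference 0.01 and the Belclare difference 0.58. The difference of the group medians was -0.42 for Fur, -0.15 for NWS and 0.20 for Belclare. Without NWS replicates 4 and 10 the NWS difference was -1.09.

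At the luteal phase the difference was -0.69 (SE 0.326) for NWS, -0.69 (SE 0.313) for Fur and -0.49 (SE 0.351) for Belclare. It was -0.41, -0.41 and -0.21 without Suffolk replicate 7. The fold change fitted by edgeR, which follows the arithmetic mean and so gives more weight to the high ewes, was larger in all 9 comparisons and ranged from -0.55 to -1.63 on the log2 scale. The 3 breeds of one state share their Suffolk ewes, so the values of a state are not independent of each other.

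The luteal and the follicular phase of the synchronised cycle were compared within each breed. The luteal level was lower than the follicular level by -0.35 (SE 0.208) in NWS, -0.16 (SE 0.202) in Fur, -0.16 (SE 0.290) in Belclare and -0.12 (SE 0.370) in Suffolk on the log2 CPM scale. Each of these differences was smaller than the pooled SD of its groups. In Suffolk the direction was not stable: the fold change fitted by edgeR was 0.10 on the log2 scale, and the arithmetic mean was higher at the luteal phase. The direction held in NWS alone when the TMM factors were left out, where the values were -0.16 in NWS, 0.03 in Fur, 0.004 in Belclare and 0.04 in Suffolk. A smaller absolute difference of mean log2 CPM than that of IGF2 was found in 51.98% of all genes in NWS. In Fur, Belclare and Suffolk the share was 25.73%, 27.34% and 23.75%. Over the same groups 22.3% of all genes in NWS, 24.2% in Fur, 23.3% in Belclare and 17.9% in Suffolk passed an adjusted p of 0.05 and a fold change of 1.5 in edgeR's quasi-likelihood test. IGF2 was given no such test.

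The natural and the synchronised follicular phase were compared within each breed. IGF2 was lower at the natural phase by -0.51 (SE 0.305) in NWS and -0.41 (SE 0.243) in Fur, and the means stood at 0.06 (SE 0.338) in Belclare and 0.03 (SE 0.556) in Suffolk. Each difference was smaller than the pooled SD of its groups. In NWS it was -0.27 without replicate 5, the ewe at 15.6 CPM, and -0.59 without replicates 4 and 10. In Suffolk the difference of the medians was -0.73, because 5 of the 8 natural ewes lay at 98.78 CPM or below while the 3 high ewes raised the mean.

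**Figure D2:**
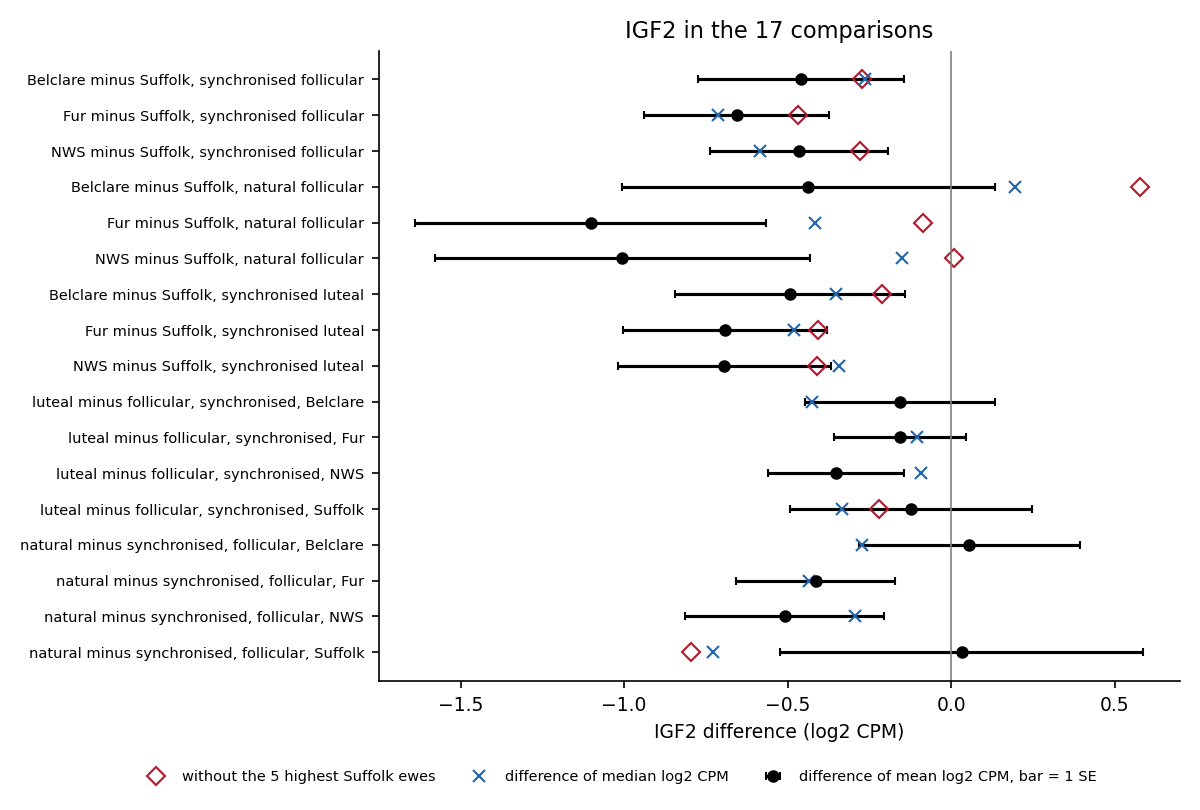
Difference of IGF2 between 2 groups on the log2 CPM scale in the 17 comparisons, first group minus second. Black points give the difference of means with bars of 1 SE, crosses the difference of medians, and open diamonds the difference without the 5 highest Suffolk ewes; the Fur minus Suffolk difference at the natural follicular phase moves from -1.10 to -0.09.

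Several genes followed IGF2 from ewe to ewe. Likeness was taken as Pearson's r over 114 ewes between the deviations of 2 genes from their group means, so that breed and state play no part. The points of a gene pair share library and depth, and the genes were chosen by r, so no test is given. Of the 15649 genes, 179 had r above 0.5 and 93 had r below -0.5. Among the 1309 tested genes that could be named, CRISPLD2, a secreted protein that binds lipopolysaccharide, was most like IGF2 (r = 0.771, Spearman's rho = 0.633). NID1, the basement membrane linker nidogen 1, followed (r = 0.719, rho = 0.611). Next came EXTL3, an enzyme of heparan sulphate synthesis (r = 0.683), B4GALT1, a galactosyltransferase (r = 0.651), and PLBD2, a lysosomal phospholipase B-like protein (r = 0.647). Of the genes without a name, ENSOARG00000000276 (r = 0.697) and ENSOARG00000014898 (r = 0.691) were most alike.

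The 5 high Suffolk ewes carried part of this likeness. Without them r was 0.6 for CRISPLD2, 0.598 for NID1, 0.539 for EXTL3, 0.519 for B4GALT1 and 0.386 for PLBD2. For CRISPLD2 it was 0.921 within the Suffolk ewes, 0.789 within Belclare, 0.616 within NWS (0.592 without replicates 4 and 10) and 0.372 within Fur. For NID1 it was 0.834, 0.735, 0.688 and 0.388 in the same order of breeds. For both genes r was positive in every breed, highest in Suffolk and lowest in Fur.

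In the ewes with the highest IGF2 the levels of these genes were also near the top of the series. CRISPLD2 had 774.1 CPM in Suffolk synchronised follicular replicate 3, where the group median was 256.4, and 715.0, 457.7 and 426.3 CPM in natural follicular replicates 9, 2 and 3, where the median was 188.2. In luteal replicate 7 it had 333.4 CPM against a median of 81.73. These ewes ranked 1, 2, 3, 4 and 6 of the 114 ewes for CRISPLD2. At the other end, NWS natural follicular replicate 5 had the lowest level of its group for CRISPLD2 (43.8 CPM) and NID1 (29.74 CPM), and its highest for PLBD2 (96.57 CPM). That library was also the lowest of the 114 for genes little like IGF2, such as PLAG1 (0.0 CPM, r = 0.036) and PEG3 (1.697 CPM, r = -0.013). Its low values are therefore not particular to the genes that follow IGF2, and the r values within NWS include it.

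**Figure D3:**
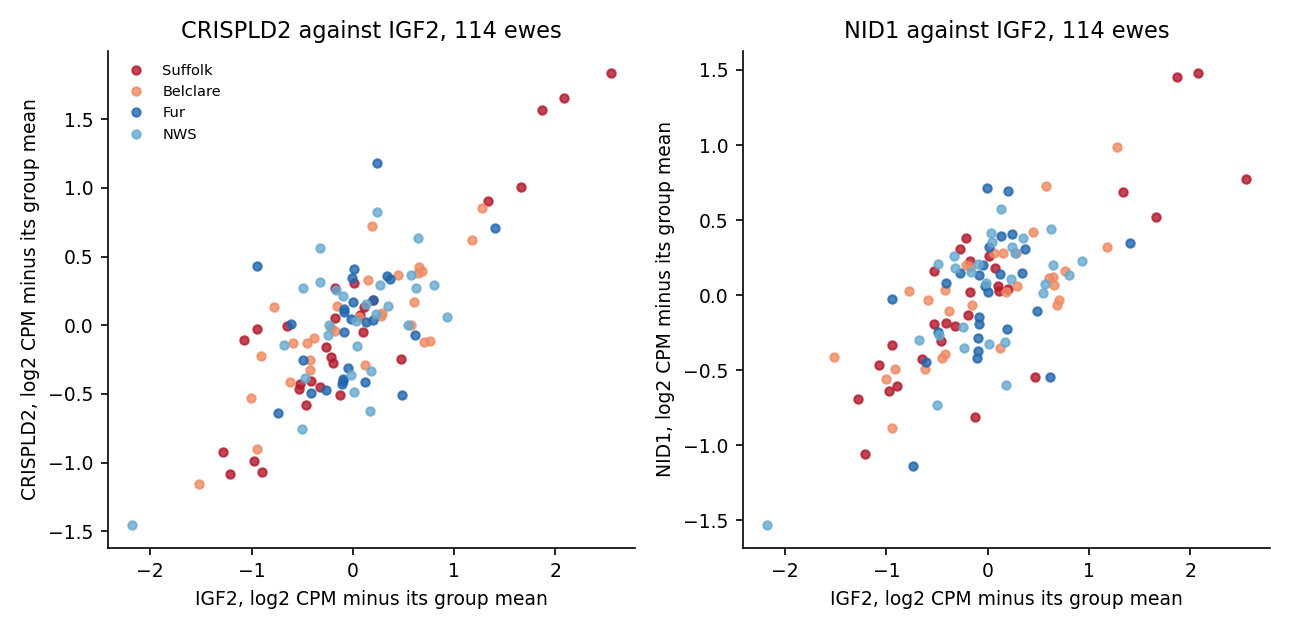
CRISPLD2 (left) and NID1 (right) against IGF2 in 114 ewes, each as log2 CPM minus the mean of the ewe's group, coloured by breed. Both clouds rise from lower left to upper right (r = 0.771 and 0.719). Suffolk luteal replicate 7 lies furthest to the right and NWS natural follicular replicate 5 furthest to the left.

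The genes that ran most against IGF2 were MIP, a water channel of the aquaporin family (r = -0.564), PAQR6, a membrane progestin receptor (r = -0.504), and SLC22A5, the carnitine transporter (r = -0.501). MIP was expressed at a low level, with a mean of 1.815 CPM. Over the 12 group means, of which the Suffolk means are raised by the high ewes, the named genes most like IGF2 were PIEZO1, a mechanically gated channel (r = 0.896), ARID3A, a transcription factor (r = 0.891), and FJX1, a secreted kinase-like protein (r = 0.883). Between ewes PIEZO1 had an r of 0.471, and of 0.165 without the 5 high Suffolk ewes, whereas ARID3A had 0.644 and 0.528. The named genes were for the most part higher in Suffolk than in Fur at the synchronised follicular phase, so a likeness over group means is partly set by the naming.

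The other genes of the IGF system were taken from 3 lists with 16 members, all of which passed the filter on low counts. Because gene names came from tables of genes chosen chiefly for a higher level in Suffolk than in Fur at the synchronised follicular phase, the direction of their breed difference in that state was fixed by the naming. The same ewes enter the comparisons of phase and of cycle within a breed, where the naming favours a low synchronised follicular level in Fur and a high one in Suffolk. Those values are a description and no support for a direction. In Fur 10 of 16 members passed lower than Suffolk (6.12% of all genes did so), and in NWS 11 of 16 (8.36% of all genes). The breed comparisons at the natural follicular and luteal phases use other ewes of the same breeds. The naming did not fix their direction but favours members lower in Fur wherever a breed difference lasts. In Fur the median log2 fold change of the 16 members was -0.281 at the natural follicular and -0.316 at the luteal phase. Over all genes it was -0.017 and -0.023. The shares of all genes given beside those calls are not corrected for this.

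The protease PAPPA, which cleaves IGF-binding protein 4 and so frees IGF, was the member most like IGF2 (r = 0.603, rho = 0.514 over 114 ewes, and 0.453 without the 5 high Suffolk ewes). It was a low-level transcript. At the natural follicular phase it ranged from 0.5384 to 25.92 CPM in Suffolk (median 4.0) and from 0.2216 to 2.656 CPM in Fur (median 0.7209). It was lower in Fur by -3.24 on the log2 scale (SE 0.744, adjusted p = 0.00901, edgeR quasi-likelihood test with Benjamini-Hochberg adjustment over all genes). The Suffolk ewes again fell apart, with 4 ewes at 6.292 CPM or more, which included the 3 of high IGF2.

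At the luteal phase PAPPA ranged from 1.716 to 13.13 CPM in Suffolk (median 4.551), with its highest value in replicate 7, the ewe of highest IGF2. It ranged from 0.4384 to 2.5 CPM in Fur (median 1.208) and from 0.5045 to 2.555 CPM in NWS (median 1.693). It was lower than in Suffolk by -2.09 in Fur (SE 0.419, edgeR adjusted p = 0.00161) and by -1.74 in NWS (SE 0.420, edgeR adjusted p = 0.0185). The highest PAPPA level of all, 25.92 CPM, was that of Suffolk natural follicular replicate 4, which had 98.78 CPM of IGF2, so the genes did not rise together in every ewe. At the synchronised follicular phase PAPPA was lower than in Suffolk by -1.28 in NWS (SE 0.490, edgeR adjusted p = 0.0414), a call lost without Suffolk replicate 3 (edgeR adjusted p = 0.152).

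**Figure D4:**
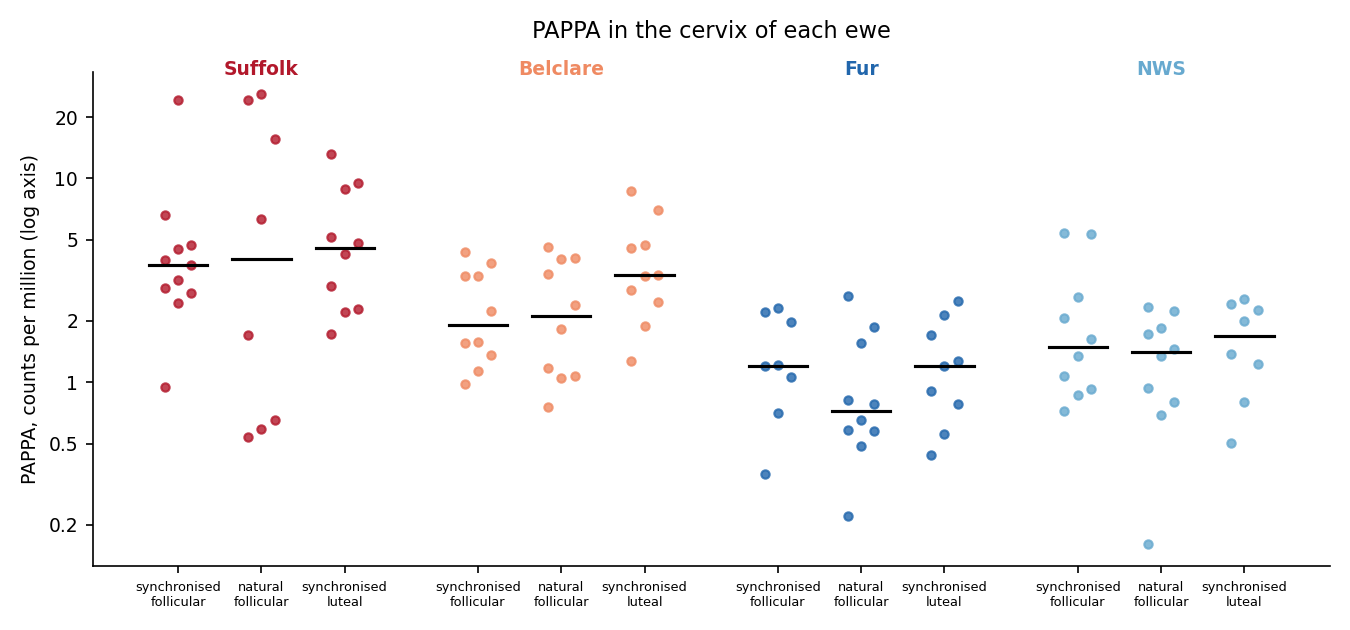
PAPPA in CPM (log axis) in each of the 114 ewes, 1 point per ewe, grouped by breed and state, with a black bar at each group's median. The highest ewes of the 3 Suffolk groups reach 13.13 to 25.92 CPM, and Fur ewes stay at or below 2.656 CPM.

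Few other members passed both thresholds against Suffolk in these states, which does not show that the rest were equal. At the natural follicular phase 8 of 16 members in Fur and 7 in NWS had an unadjusted p below 0.05 in edgeR's test. Over all 15649 genes 5479 and 3147 did so. At the natural follicular phase 2 of 16 members passed lower in Fur (4.75% of all genes did so), PAPPA and ADAM28, a metalloproteinase able to cleave IGF-binding protein 3. ADAM28 ranged from 249.3 to 780.2 CPM in Suffolk and from 94.85 to 496.7 CPM in Fur (log2 fold change -1.16, SE 0.307, edgeR adjusted p = 0.0167). In NWS 1 of 16 passed lower (0.435% of all genes), again ADAM28 (-1.64, SE 0.311, edgeR adjusted p = 0.0400). Without NWS replicates 4 and 10 this call was lost (edgeR adjusted p = 0.107), as was every other: 0 of 15649 genes passed. With all ewes of both groups DESeq2's Wald test called 4 of 16 members, and 896 of 15649 genes in either direction.

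At the luteal phase 2 of 16 passed lower in Fur (7.53% of all genes), PAPPA and PDE3B, a phosphodiesterase that insulin activates. PDE3B ranged from 10.6 to 30.57 CPM in Suffolk and from 6.469 to 9.779 CPM in Fur, with no overlap (-1.06, SE 0.199, edgeR adjusted p = 0.00113). It also varied with IGF2 between ewes (r = 0.544). PAPPA was the 1 of 16 members that passed lower in NWS (1.56% of all genes). In Belclare SOCS6, a suppressor of cytokine and insulin signalling, was the 1 of 16 that passed higher (0.952% of all genes), with a log2 fold change of 0.97 (SE 0.224, edgeR adjusted p = 0.0297).

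Belclare differed from Suffolk in 0 of 16 members at both follicular phases in edgeR's quasi-likelihood test, where 0.00639% of all genes passed in either state. At an unadjusted p below 0.05 there were 2 members at the synchronised and 5 at the natural phase, against 1048 and 1552 of all 15649 genes. DESeq2's Wald test called 1 member (PDE3B) and 0, against 61 and 25 of all genes. IGF2R, the receptor that clears IGF2, passed both thresholds in none of the 9 breed comparisons and ranged from 54.06 to 211.1 CPM over the series. FURIN, a convertase of precursor proteins that include pro-IGF2, did so in none of them either and ranged from 40.65 to 159.4 CPM. Their differences passed the adjusted p but stayed under a fold change of 1.5 in some of them: at the luteal phase IGF2R was lower than in Suffolk by -0.34 in Fur (SE 0.091, edgeR adjusted p = 0.00915) and by -0.36 in NWS (SE 0.104, edgeR adjusted p = 0.0378), and FURIN was lower by -0.58 in Fur (SE 0.1, edgeR adjusted p = 0.000665) and by -0.54 in NWS (SE 0.102, edgeR adjusted p = 0.0042).

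Between phases members of the IGF system passed in both directions. IGF2, which was given no test, differed by less than the pooled SD of its groups. From the follicular to the luteal phase of the synchronised cycle 4 of 16 members rose and 3 fell in Belclare (23.3% of all genes passed in either direction), 6 rose and 1 fell in Fur (24.2%), 6 rose and 1 fell in NWS (22.3%), and 0 rose and 4 fell in Suffolk (17.9%). In Fur and Suffolk, and in NWS as far as its synchronised follicular levels follow those of Fur, the naming favours these directions, so the split between rises and falls there is a description and supports nothing. WISP1, a matrix-associated CCN protein with an IGFBP-like domain, fell in all 4 breeds, with log2 fold changes of -2.35 (SE 0.448) in Belclare, -2.02 (SE 0.476) in Fur, -1.44 (SE 0.303) in NWS and -1.63 (SE 0.372) in Suffolk. The highest edgeR adjusted p of the 4 was 0.00252, in Fur. In Belclare, for example, its follicular range was 1.864 to 13.11 CPM and its luteal range 0.2487 to 4.394 CPM, which overlapped.

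ADAM28 rose in Belclare (1.75, SE 0.306), Fur (1.35, SE 0.306) and NWS (1.497, SE 0.461). CRIM1, a membrane protein with an IGFBP-like motif, rose in the same 3 breeds by 0.78 to 0.87, and so did GRB7, an adaptor of growth factor receptors, by 0.77 to 1.35. PLAG1, a zinc finger activator of IGF2 transcription, rose in them too, by 0.96 (SE 0.277) in Belclare, 1.11 (SE 0.257) in Fur and 1.02 (SE 0.399) in NWS, while IGF2 gave -0.16, -0.16 and -0.35. In NWS the PLAG1 call (edgeR adjusted p = 0.0485) was lost without the low-count filter (edgeR adjusted p = 0.066). Between ewes PLAG1 had an r of 0.036 with IGF2.

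HTRA4, a serine protease with an IGFBP-like domain, fell in Belclare (-3.10, SE 0.430) and Suffolk (-2.83, SE 0.544), from medians of 1.642 and 1.751 CPM to 0.2302 and 0.2207 CPM. IGFBP2, which binds IGF2 in tissue fluid, fell in Suffolk (-1.17, SE 0.382, edgeR adjusted p = 0.0213), from a median of 100.1 to 30.39 CPM. PEG3, an imprinted gene expressed from the paternal allele like IGF2, rose in Fur (0.97, SE 0.142) and NWS (0.60, SE 0.189). Whether the change with phase differed between breeds was tested as an interaction over the 76 synchronised ewes. By edgeR's quasi-likelihood F test 0 of 16 members passed (0.952% of all genes did), and the lowest adjusted p, 0.0553, was that of HTRA4. At an unadjusted p below 0.05 there were 3 members, for which no share over all genes was computed. The synchronised follicular ewes behind the naming are part of this test and favour a larger luteal change in Fur and NWS than in Suffolk, so its values for the members are a description.

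In Fur 3 of 16 members were higher at the natural than at the synchronised follicular phase (2.42% of all genes were): GRB7 by 0.77, INPP4B, a phosphatase of the phosphoinositide 3-kinase pathway, by 0.68, and PEG3 by 0.72. The naming favours that direction too, since it chose genes that were low in the synchronised Fur ewes. In the other 3 breeds, Belclare, NWS and Suffolk, the quasi-likelihood test of edgeR called 0 of 16 (0.0%, 0.0128% and 0.0% of all genes). At an unadjusted p below 0.05 there were 0, 3 and 0 members, against 332, 2010 and 1334 of all 15649 genes. DESeq2's Wald test called 0 members in each, against 0, 100 and 9 of all genes. Without replicates 4 and 10 the 3 members in NWS at the unadjusted p became 0, while 1734 of all genes remained.

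**Figure D5:**
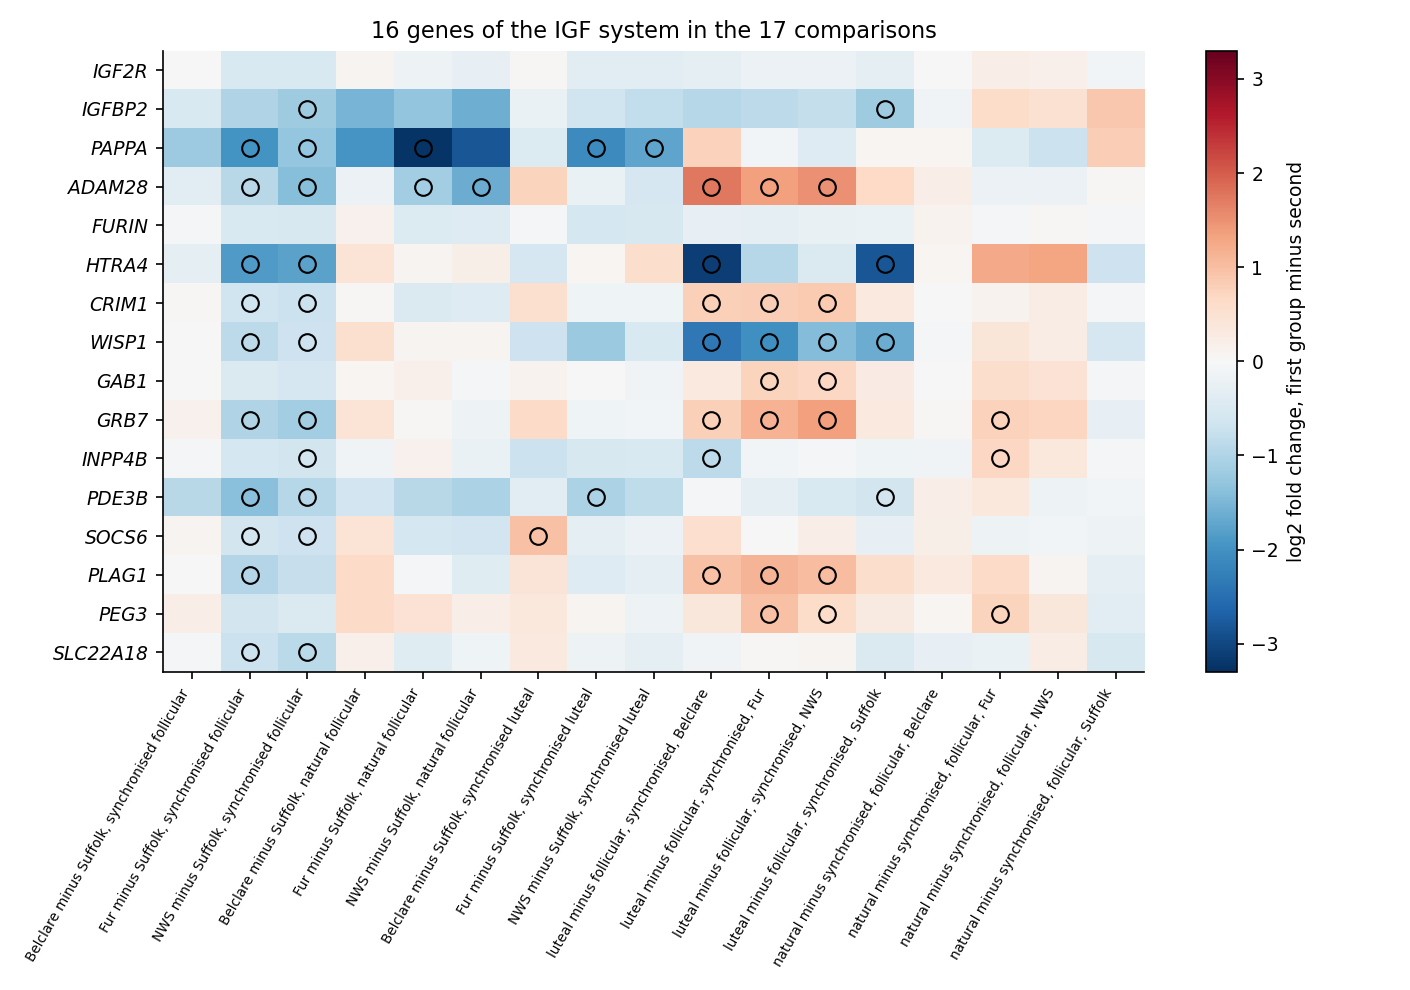
Log2 fold change (colour, first group minus second) of the 16 genes of the IGF system in the 17 comparisons, by edgeR; rings mark an adjusted p below 0.05 with a fold change above 1.5. WISP1 is ringed in all 4 luteal comparisons and PAPPA in 5 of the 9 comparisons with Suffolk; the rings at the synchronised follicular phase against Suffolk follow from how the genes were named.

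Levels of cell type markers were set beside IGF2 as 6 lists, each scored as the mean log2 CPM of its members and taken as deviations from the group means. The stromal list, of fibroblast and matrix genes, had the largest r with IGF2 over 114 ewes (r = 0.271, permutation p = 0.0102; rho = 0.219, p = 0.029). It did not pass after adjustment over the 6 lists (adjusted p = 0.0613 for r and 0.174 for rho in a two-sided permutation test of 100000 draws within groups). IGF2 and the lists were chosen with earlier results of these data known, so the p-values of all 6 lists are a description. Without the 2 ewes of most extreme stromal level r was 0.223, and r was positive within 10 of the 12 groups. Its members ranged from PDGFRB, a receptor of fibroblasts and pericytes (r = 0.435), to MXRA8 (r = -0.143), and 12 of 13 were positive.

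None of the other lists passed, which does not show that they are unrelated to IGF2. The leukocyte list had r = 0.21 (permutation adjusted p = 0.095; rho = 0.171), from IRF8 (0.434) to PTPRCAP (-0.356). The list of plasma protein genes had r = 0.209 (permutation adjusted p = 0.115; rho = 0.149), from RBP4 (0.417) to FGB (-0.25). Epithelium gave r = 0.171 with MUC16 highest (0.466) and ERBB3 lowest (-0.118), endothelium and pericytes 0.166 with ANGPT2 highest (0.412) and SOX17 lowest (-0.136), and smooth muscle -0.172 with ACTC1 highest (0.018) and ASB2 lowest (-0.269), each at a permutation adjusted p of 0.148. Their rho values were 0.112, 0.17 and -0.135. Without the 2 most extreme ewes of each list, r lay between -0.215 and 0.215 for these 5 lists. Without the 5 high Suffolk ewes r was 0.208 for stroma, 0.195 for leukocytes, 0.114 for plasma proteins, 0.094 for epithelium, 0.095 for endothelium and pericytes and -0.113 for smooth muscle.

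Beside the high Suffolk ewes the summed stromal level was 8624 CPM in synchronised follicular replicate 3, the highest of its group (median 4597). It was 5660, 5058 and 4018 CPM in natural follicular replicates 9, 2 and 3 (median 4182) and 3875 CPM in luteal replicate 7 (median 2882, highest 4407). The summed epithelial level was 4546 CPM in the first of these ewes (group median 5193), 8939, 6806 and 7352 CPM in the natural follicular ewes (median 4536) and 4713 CPM in the luteal ewe (median 2946). Both lists thus stood above the group median in 4 of the 5 ewes. The leukocyte list did so in all of them but natural follicular replicate 3. Endothelium and pericytes did so in the natural follicular ewes alone. Smooth muscle lay below the group median in all of them but natural follicular replicate 2. The summed level of the plasma protein genes stood above the group median in all 5, at 975.6 CPM in the synchronised follicular ewe (median 266.7), 467.9, 500.9 and 283.3 CPM in the natural follicular ewes (median 253.0) and 153.9 CPM in the luteal ewe (median 96.86). The part of these markers in the high IGF2 values was not tested.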

How the data were processed

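Per the study's methods, poly(A) RNA of flash-frozen cervix was sequenced from TruSeq Stranded mRNA libraries, and the authors trimmed the read pairs, aligned them with STAR 2.6.1b to the sheep assembly Oar_v3.1 and counted uniquely mapped pairs per Ensembl gene with featureCounts (Subread 1.6.3). The deposited values are raw read counts per gene, 1 table per ewe. No 2 libraries of a group agreed within sampling noise (490 pairs, chi-square at least 15.4 per degree of freedom).

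Groups were taken from the labels, in which a synchronised cycle is called induced. Genes with at least 1 CPM in at least 10 of 114 ewes were kept (15649). TMM factors were computed over all 114 ewes with edgeR 4.0.16 in R 4.3.3, and log2 CPM used a prior count of 2. IGF2 differences are differences of mean log2 CPM. The other genes were tested with edgeR's quasi-likelihood test on the 2 groups compared, with Benjamini-Hochberg adjustment over all genes, and called at an adjusted p below 0.05 and a fold change above 1.5. DESeq2 1.42.0, other scalings and filters, the replicate number as a block, and leaving out each ewe were alternatives. In simulated counts 70 to 79 of 100 genes changed by 1 on the log2 scale were recovered in the 3 comparisons simulated. Members of the IGF system lists, marker lists and IGF2 itself were chosen with earlier results of these data known. Gene names came from the study's supplementary tables, which pair 1312 symbols with 1 identifier each. Named genes were IGF2, all members of the IGF lists, the 5 named and 2 unnamed genes of highest r, the 3 named genes of lowest r, the 3 named genes of highest r over group means, and the highest and lowest member of each marker list.

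Same-numbered ewes of different groups were compared to see whether replicate numbers pair them: 52 of 151 pairs had a correlation of deviations above 0.1, and in 0 of the 17 comparisons did all pairs, so the numbers were not treated as pairing.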

Additional observations from a re-analysis of the deposited data

Results flagged for a closer look

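Within the 11 groups of 4 to 10 ewes, 2 had an ewe whose gap to its nearest neighbour in IGF2, as a share of the group's whole range, exceeded Dixon's 95% critical value for a group of its size (0.466 for the 10 ewes of both). The rule was applied to CPM and not to log2 CPM. Its rate by chance, about 1 in 20 groups, holds for normally distributed values of a gene not chosen for its values. In CPM single ewes lay far above the rest, and IGF2 was chosen with its values known, so these gaps are a description. Suffolk luteal replicate 7 had 749.4 CPM against 134.5 CPM in the next ewe, a gap of 0.921 of the range. Fur natural follicular replicate 3 had 175.8 CPM against 78.26 CPM, a gap of 0.737 of the range. The 3 high Suffolk ewes of the natural follicular phase did not meet this rule, since they lie near each other, and the 11 Suffolk ewes of the synchronised follicular phase were too many for it. Low ewes stand further apart on the log2 scale, which the rule did not cover. There NWS natural follicular replicate 5 had 3.974, against 5.822 in the next ewe and 6.952 in the highest of its group.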

How the results depend on the processing

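IGF2 was recomputed 423 times in its 17 comparisons. The alternatives were other scalings, the fitted fold change, medians, the replicate block, and single ewes or sets of ewes left out. No value moved by more than the pooled SD between ewes of its groups, but this limit could hardly be passed. Leaving out 1 ewe moves a mean by less than the SD, and the 5 highest Suffolk ewes themselves widen that SD. The count is therefore no measure of stability. With 1 ewe left out, the 9 differences from Suffolk stayed below 0, from -1.28 to -0.14, whereas the natural minus synchronised difference changed sign in Belclare (-0.09 to 0.22) and Suffolk (-0.27 to 0.22), and luteal minus follicular in Suffolk (-0.41 to 0.06). Leaving out the 5 highest Suffolk ewes was chosen after seeing the data; it turned the natural follicular differences of Belclare and NWS to 0.58 and 0.01 and the Suffolk natural minus synchronised difference to -0.80. Among the IGF system genes DESeq2's Wald test raised the natural versus synchronised calls from 3 to 5, adding HTRA4 and GAB1 in Fur; the cause was not tested. Calls against Suffolk numbered 28 of 144 gene comparisons, 21 with the replicate block, 40 with DESeq2's Wald test and 41 without a fold threshold. The shifts with the block and the Wald test are not particular to these genes. Over all genes the Wald test raised the calls in each of the 9 comparisons, as from 145 to 896 in NWS at the natural phase. The block lowered them in all but Fur at the luteal phase (2229 to 2268), as from 429 to 23 in Belclare at the luteal phase. Calls between phases numbered 25 of 64, 22 with the block, and natural versus synchronised 3, and 2 with the block. Over all genes the block lowered the calls between phases in every breed, as from 3491 to 2785 in NWS. In Fur the natural versus synchronised calls over all genes went from 804 to 877 with the block and to 909 with DESeq2's Wald test. With the block the PAPPA call against Suffolk was lost in Fur at the natural phase (edgeR adjusted p = 0.0720) and in NWS at the luteal phase (edgeR adjusted p = 0.159), although the numbers do not pair the ewes. CRISPLD2 and EXTL3 had a rho of 0.633 and 0.54, lower than their r. Spearman's ranking kept 3 of the 5 most like named genes and brought in ARID3A and BMP2.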

Other observations

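The Suffolk sample whose title and descriptors name different states entered no comparison. It held 1370 IGF2 reads of 15387419, or 89.03 CPM without TMM factors. On the same scale the Suffolk ewes ranged from 68.99 to 468.0 CPM at the synchronised follicular phase, from 58.08 to 579.3 CPM at the natural follicular phase and from 87.91 to 768.4 CPM at the luteal phase, so its level lay within the range of each state.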
